A study of Mus musculus with 7 samples.

Results

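Neurons carry a cytoskeleton of their own, and the 10 genes described here encode its best known parts: the neurofilament proteins (Nefl, Nefm, Nefh), peripherin (Prph), alpha-internexin (Ina), beta-III tubulin (Tubb3), the microtubule-associated proteins MAP2 and tau (Map2, Mapt), and the growth cone proteins GAP-43 and stathmin-2 (Gap43, Stmn2). They were chosen by symbol as a fixed list, and all 10 were found among the 27179 Entrez gene identifiers of the deposited table. Their levels were followed through 7 RNA sequencing libraries of mouse neural crest-derived cells and their culture partners.

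The mice carried Wnt1-Cre and the R26R-tdT reporter, so that Cre expressed from the Wnt1 promoter switches on tdTomato (tdT) in neural crest cells and in what descends from them. Every library was a pool of equal parts from 3 mice aged 1 month, 2 female and 1 male, and there was 1 library per group. The 7 groups were adipose neurospheres, adipose primary cells, bowel M2 neurospheres, bowel M1 neurospheres, tdT-positive and tdT-negative cells of bowel spheroids, and bowel primary cells. Primary cells were sorted for tdT straight after digestion of subcutaneous fat pads or of the muscle coat of the small bowel, which holds the myenteric plexus. For M1 neurospheres, sorted bowel cells were cultured for 10 days. For mixed spheroids, unsorted bowel cells were cultured for 10 days and then sorted, which gave the tdT-positive and tdT-negative groups. For M2 neurospheres and for adipose neurospheres, positive cells sorted from such mixed cultures of bowel or fat were grown for 10 more days. The culture medium held bFGF and EGF, growth factors that keep neural progenitors dividing, with heparin. With 1 library per group there is no replicate check, no p-value is given, and the intervals below cover counting error only. In pooled RNA such as this, fewer cells of a type and less RNA per cell cannot be told apart.

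Neurofilaments are intermediate filaments that fill axons and set their calibre, whereas microtubules serve as tracks for transport in axons and dendrites, and the growth cone is the motile tip that steers an extending neurite. The enteric nervous system, which comes from the neural crest, lies within the gut wall as ganglia of neurons and glia. In contrast, subcutaneous fat is reached by axons whose cell bodies lie outside it, in sympathetic and sensory ganglia, and by the Schwann cells along them. Tubb3, Prph and the neurofilament proteins are standard histological markers of peripheral neurons. GAP-43 is also made by some Schwann cells.

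Levels are given in CPM, which is the read count of a gene scaled to a library total of assigned reads. The libraries held between 51885106 and 65301500 reads, and 3 reads, the floor used for a gene without reads, corresponded to between 0.0459 and 0.0578 CPM. Markers of other cells moved with the groups, and their part in the results below was not tested. Glial and Schwann cell markers, 11 genes, summed to between 1691 and 6918 CPM in the 6 tdT-positive libraries and to 30.2 CPM in tdT-negative spheroid cells. Pancreatic acinar markers, 15 genes, took up at most 0.0245% of the reads of the other libraries and 7.85% of those of bowel primary cells. The 8 smooth muscle markers summed to between 22.5 and 323.7 CPM in the other libraries, against 26168 CPM in bowel primary cells, and the 8 lymphocyte markers to 1789 CPM in adipose primary cells, against at most 50.7 CPM elsewhere. Most of the lymphocyte sum was 1 gene, Ccr7, with 1473 CPM in adipose primary cells and 43.2 CPM in tdT-negative spheroid cells. Of 11 enteric neuron markers, 1 reached 1 CPM in adipose neurospheres, 2 in adipose primary cells, 7 in M2 neurospheres, 9 in M1 neurospheres, 7 in tdT-positive spheroid cells, 4 in tdT-negative spheroid cells and all 11 in bowel primary cells. Defining markers without reads included Slc18a3, the vesicular acetylcholine transporter, in both adipose libraries and in tdT-negative spheroid cells, and Chat, the enzyme that makes acetylcholine, in both spheroid fractions.

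The members lie at 10 places on 8 chromosomes of GRCm38, the assembly behind mm10. Nefl (Entrez 18039, chromosome 14, 68083863 to 68089095) and Nefm (18040, chromosome 14, 68119545 to 68125004) are neighbours 30449 bp apart with 1 annotated gene, Gm19216, between them. Nefh (380684) lies on chromosome 11 from 4938754 to 4948064, Prph (19132) on chromosome 15 from 99053579 to 99058978, and Ina (226180) on chromosome 19 from 47014681 to 47025327. Tubb3 (22152) lies on chromosome 8 from 123411553 to 123422015, Map2 (17756) on chromosome 1 from 66175202 to 66442583, and Mapt (17762) on chromosome 11 from 104229409 to 104332090. Gap43 (14432) lies on chromosome 16 from 42248552 to 42340651 and Stmn2 (20257) on chromosome 3 from 8509527 to 8561604. Some of these gene bodies overlap others, and the sources used here do not say whether counting took strand into account. Nefh overlaps Ap1b1, an adaptor protein gene that reached 225.8 CPM, and Ina overlaps Nt5c2, which reached 53.1 CPM, and reads in the shared stretches cannot be told apart. Nefm overlaps the non-coding gene A230070E04Rik, which reached 0.277 CPM.

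Promoter windows are printed for Prph, Ina, Tubb3 and Map2, the members for which a window was at hand. Prph and Ina were more than 4-fold below bowel primary cells in all 3 cultured crest libraries of the bowel. Nefl, Nefm, Nefh and Stmn2 were so too, whereas Tubb3 and Map2 were so in none. Each window runs from 250 bases before to 50 bases after the start in a table of RefSeq promoters of GRCm38.p6, on the plus strand: chr15:99054924-99055223 for Prph, chr19:47014431-47014730 for Ina, chr8:123411303-123411602 for Tubb3 and chr1:66175079-66175378 for Map2. The table of promoter windows used here held these 4 of the 10 members. For Tubb3 and Ina its start is the first base of the gene span given above, whereas for Prph and Map2 it lies inside that span, downstream of its first base. Capitals mark core promoter motifs on either strand, which were the letters TATAAA for a TATA box, those of the CCAAT box, and GGGCGG for a GC box.
Prph: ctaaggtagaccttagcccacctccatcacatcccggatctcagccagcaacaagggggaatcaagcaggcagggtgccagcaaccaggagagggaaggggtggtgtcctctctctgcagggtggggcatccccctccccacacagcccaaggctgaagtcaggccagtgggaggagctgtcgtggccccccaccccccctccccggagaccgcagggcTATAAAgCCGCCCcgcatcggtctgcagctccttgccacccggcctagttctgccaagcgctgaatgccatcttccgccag
Ina: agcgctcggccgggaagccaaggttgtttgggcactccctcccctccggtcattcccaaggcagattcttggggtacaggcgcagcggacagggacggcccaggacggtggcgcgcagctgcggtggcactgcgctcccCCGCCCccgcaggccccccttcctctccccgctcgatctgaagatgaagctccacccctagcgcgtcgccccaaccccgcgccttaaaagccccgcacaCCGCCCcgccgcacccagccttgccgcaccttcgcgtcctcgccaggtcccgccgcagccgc
Tubb3: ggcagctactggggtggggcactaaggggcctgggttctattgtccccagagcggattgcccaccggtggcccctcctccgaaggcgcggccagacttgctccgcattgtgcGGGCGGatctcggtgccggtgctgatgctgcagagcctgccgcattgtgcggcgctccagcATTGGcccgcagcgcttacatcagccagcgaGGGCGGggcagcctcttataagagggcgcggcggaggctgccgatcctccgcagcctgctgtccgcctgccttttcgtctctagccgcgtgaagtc
Map2: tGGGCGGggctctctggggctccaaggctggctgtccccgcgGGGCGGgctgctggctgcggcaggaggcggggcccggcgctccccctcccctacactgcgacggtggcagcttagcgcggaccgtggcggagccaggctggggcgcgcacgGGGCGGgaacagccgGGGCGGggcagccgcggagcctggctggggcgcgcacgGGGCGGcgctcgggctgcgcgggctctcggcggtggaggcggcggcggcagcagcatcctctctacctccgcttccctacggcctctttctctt

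All 4 windows held a GC box, which 35.9% of all 27025 promoter windows of that length hold. Prph had the TATA box, 31 bases before the start, a motif found in 14.2% of windows. Tubb3 had the CCAAT box, 77 bases before the start and on the minus strand, a motif found in 37.9%. Map2 held 5 GC boxes, Ina and Tubb3 2 each and Prph 1. The windows were rich in G and C, with 64.7% in Prph, 71.7% in Ina, 67.3% in Tubb3 and 77.7% in Map2, against a median of 52.7% over all windows. They held 10, 32, 26 and 37 CpG sites in the same order of genes, against a median of 7. An E box (CANNTG, in 72.1% of windows) was found in Ina alone of these 4, where it was the CAGCTG form (16.1%). The letters of a cyclic AMP response element (TGACGTCA, 1.88%), of its 5-base part (TGACG, 21%), of an AP-1 site (TGANTCA, 7.93%), of a Sox site (ACAAAG, 18.7%) and of a Phox2 homeodomain site (0.0518%) were in none of the 4 windows. All motifs were searched on both strands. The 5-base part lies within the full cyclic AMP element and CAGCTG is a form of CANNTG, so these matches overlap. A match is a description of letters and not of a bound site.

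All 5 filament genes were highest in bowel primary cells. Peripherin, encoded by Prph and a type III filament protein of peripheral and enteric neurons, had 1.46 CPM in adipose neurospheres, 4.22 CPM in adipose primary cells, 2.21 CPM in M2 neurospheres, 12.1 CPM in M1 neurospheres, 1.30 CPM in tdT-positive spheroid cells, 0 CPM in tdT-negative spheroid cells and 328 CPM in bowel primary cells. The bowel primary library thus stood far above all others, M1 neurospheres came next, and no read was counted in the cells outside the crest lineage. Nefl, the light subunit without which neurofilaments do not assemble, had 0.130 CPM in adipose neurospheres, 0.281 CPM in adipose primary cells, 0.322 CPM in M2 neurospheres, 1.79 CPM in M1 neurospheres, 0.0310 CPM in tdT-positive spheroid cells, 0 CPM in tdT-negative spheroid cells and 44.0 CPM in bowel primary cells. Only bowel primary cells and M1 neurospheres reached 1 CPM. Below them, the neighbouring libraries in the order of Nefl levels did not differ beyond counting error.

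Nefm, the medium subunit, had 0.844 CPM in adipose neurospheres, 0.515 CPM in adipose primary cells, 0.260 CPM in M2 neurospheres, 0.443 CPM in M1 neurospheres, 0.511 CPM in tdT-positive spheroid cells, 0.0464 CPM in tdT-negative spheroid cells and 6.43 CPM in bowel primary cells. It stayed under 1 CPM in all libraries but that of bowel primary cells. Nefh, the heavy subunit, had 0 CPM in adipose neurospheres, 0.875 CPM in adipose primary cells, 0.0459 CPM in M2 neurospheres, 0.578 CPM in M1 neurospheres, 0 CPM in tdT-positive spheroid cells, 0.0309 CPM in tdT-negative spheroid cells and 10.8 CPM in bowel primary cells. Only bowel primary cells reached 1 CPM. Ina, a filament protein that joins neurofilaments early in neuronal differentiation, had 0.211 CPM in adipose neurospheres, 0.562 CPM in adipose primary cells, 0.613 CPM in M2 neurospheres, 7.07 CPM in M1 neurospheres, 0.0619 CPM in tdT-positive spheroid cells, 0.216 CPM in tdT-negative spheroid cells and 35.3 CPM in bowel primary cells. For Nefl, Prph and Ina, M1 neurospheres were thus next after bowel primary cells.

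**Figure D1:**
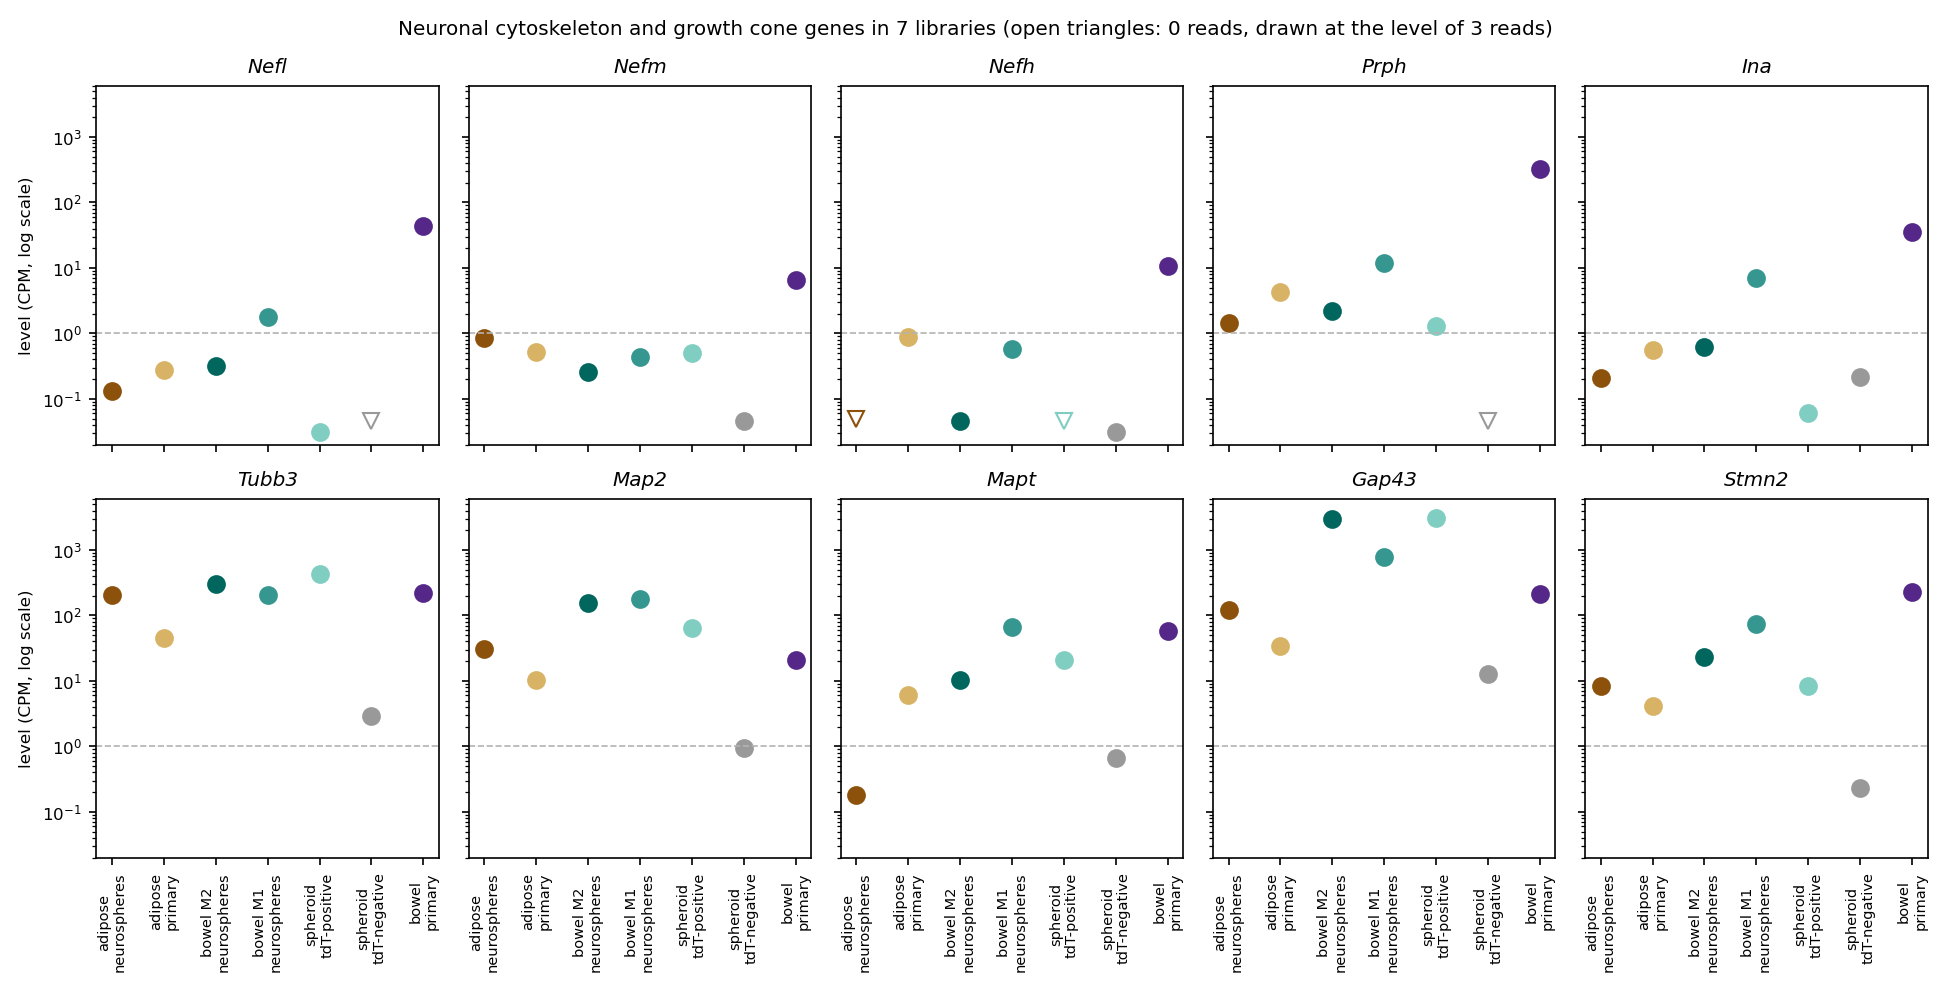
Level of each of the 10 genes (CPM, log scale) in the 7 libraries, 1 point per library; the dashed line marks 1 CPM and open triangles stand for 0 reads, drawn at the level of 3 reads. The filament genes in the top row peak in bowel primary cells, with Prph at 328 CPM, whereas Tubb3, Map2 and Gap43 in the bottom row each peak in a cultured bowel crest library, with Gap43 at 3094 CPM in tdT-positive spheroid cells.

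Per kilobase of exon, the filament genes could be set against each other within a library. In bowel primary cells Prph led with 176 CPM per kb, followed by Nefl with 13.03, Ina with 10.9, Nefh with 2.71 and Nefm with 1.11 CPM per kb. The makeup of the neurofilament triplet differed between libraries. Of the reads of Nefl, Nefm and Nefh together, Nefl took 13.3% in adipose neurospheres and 16.8% in adipose primary cells, 51.2% in M2 neurospheres, 63.7% in M1 neurospheres, 5.71% in tdT-positive spheroid cells and 71.8% in bowel primary cells. These shares rest on 60 triplet reads in adipose neurospheres, 107 in adipose primary cells, 41 in M2 neurospheres, 146 in M1 neurospheres, 35 in tdT-positive spheroid cells and 3536 in bowel primary cells, and tdT-negative spheroid cells had 5. The share was thus low in both adipose libraries and also in tdT-positive cells of the bowel, where 33 of the 35 reads were of Nefm. The exact (Clopper-Pearson) 95% interval of the Nefl share was 10.3% to 25.3% in adipose primary cells and 70.3% to 73.3% in bowel primary cells, so these 2 libraries differed beyond counting error. In adipose primary cells Nefh, whose overlap with Ap1b1 is described above, held 52.3% of the triplet reads.

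Of the filament genes of other cells, Nes passed the size rule described below as higher than in bowel primary cells in all 3 cultured crest libraries, and Vim and Gfap did so in M2 neurospheres and tdT-positive spheroid cells. Vimentin (Vim), the type III filament protein of mesenchyme and of many progenitors, reached 869 CPM per kb in M2 neurospheres, 505 in M1 neurospheres and 1043 in tdT-positive spheroid cells, against 155 CPM per kb in bowel primary cells. Nestin (Nes), a filament protein of neural progenitors, reached 41.4 CPM per kb in M2 neurospheres, 44.1 in M1 neurospheres and 81.0 in tdT-positive spheroid cells, against 3.93 CPM per kb in bowel primary cells. Gfap, the filament protein of astrocytes and enteric glia, reached 215 CPM per kb in M2 neurospheres, 57.9 in M1 neurospheres and 272 in tdT-positive spheroid cells, against 16.1 CPM per kb in bowel primary cells. In adipose neurospheres, against adipose primary cells, Nes stood at 110 against 1.94 CPM per kb and Gfap at 0.331 against 3.21 CPM per kb.

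**Figure D2:**
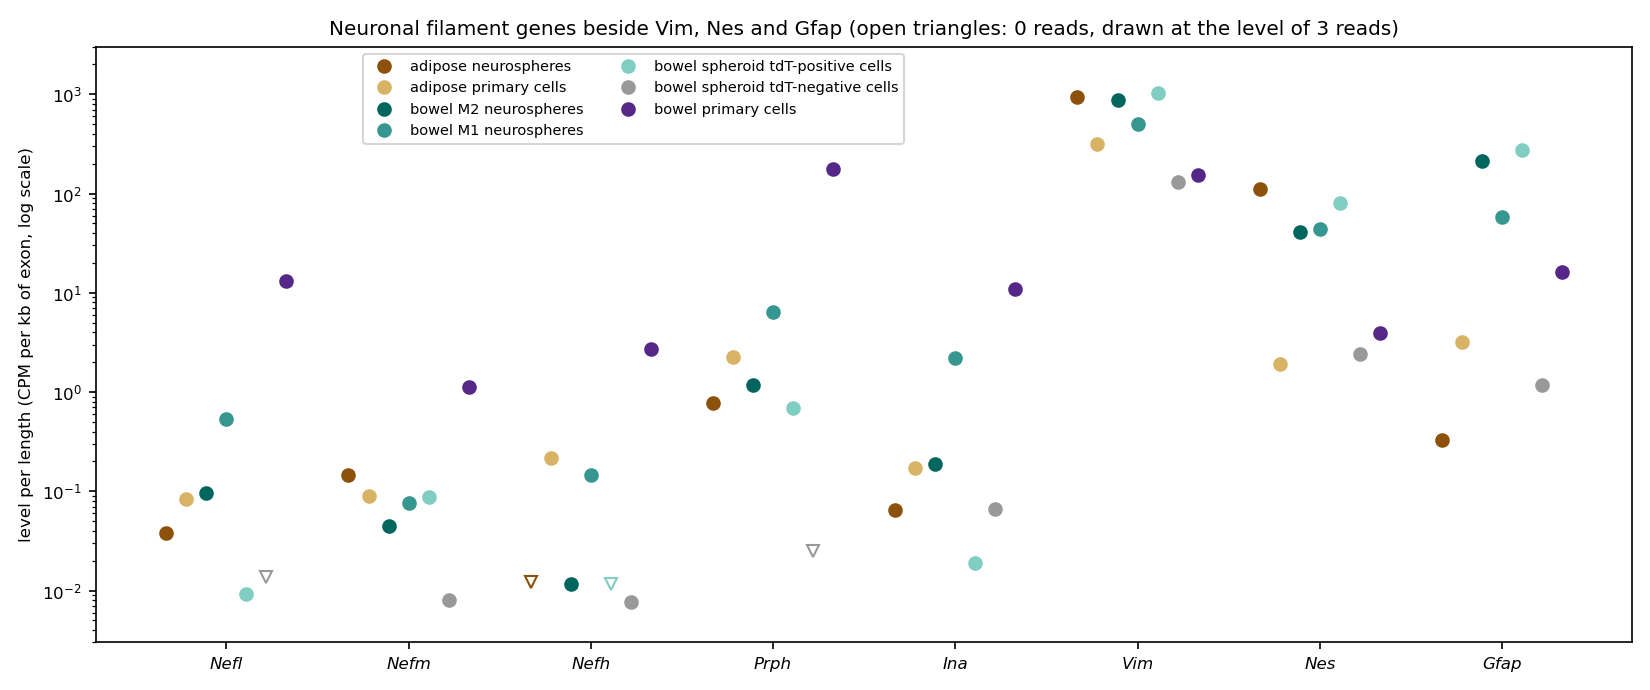
Level per kilobase of exon (CPM per kb, log scale) of the 5 neuronal filament genes and of Vim, Nes and Gfap, 1 point per library; open triangles stand for 0 reads, drawn at the level of 3 reads. Bowel primary cells are highest for every neuronal filament gene, with 176 CPM per kb for Prph, and tdT-positive spheroid cells are highest for Vim and Gfap, with 1043 and 272 CPM per kb.

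Of the microtubule genes, Tubb3 and Map2 were highest in cultured cells. Tubb3, the beta tubulin long used to stain neurons, had 209 CPM in adipose neurospheres, 44.5 CPM in adipose primary cells, 303 CPM in M2 neurospheres, 207.5 CPM in M1 neurospheres, 428 CPM in tdT-positive spheroid cells, 2.91 CPM in tdT-negative spheroid cells and 223 CPM in bowel primary cells. The 4 cultured crest libraries lay between 207.5 and 428 CPM, on either side of bowel primary cells, and the tdT-negative cells were lowest. Map2, whose protein binds microtubules of dendrites and cell bodies, had 30.8 CPM in adipose neurospheres, 10.5 CPM in adipose primary cells, 157 CPM in M2 neurospheres, 178 CPM in M1 neurospheres, 64.7 CPM in tdT-positive spheroid cells, 0.959 CPM in tdT-negative spheroid cells and 20.7 CPM in bowel primary cells. Both bowel neurosphere libraries were highest and did not differ beyond counting error after scaling.

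Mapt encodes tau, which binds axonal microtubules. It had 0.179 CPM in adipose neurospheres, 6.15 CPM in adipose primary cells, 10.4 CPM in M2 neurospheres, 66.8 CPM in M1 neurospheres, 20.6 CPM in tdT-positive spheroid cells, 0.665 CPM in tdT-negative spheroid cells and 58.4 CPM in bowel primary cells. M1 neurospheres and bowel primary cells were high, and adipose neurospheres were lowest, below the cells outside the crest lineage. Which of the top 2 libraries was higher depended on the scaling. Per kilobase of exon, Map2 and Mapt stood at 15.4 and 1.64 CPM per kb in M2 neurospheres, at 17.5 and 10.5 in M1 neurospheres, and at 2.03 and 9.14 in bowel primary cells. Map2 was thus the more abundant of the pair in both neurosphere libraries and Mapt in bowel primary cells.

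Gap43 and Stmn2, both growth cone genes, parted company. Gap43, whose membrane-bound protein is a target of protein kinase C, had 119.6 CPM in adipose neurospheres, 33.6 CPM in adipose primary cells, 2917 CPM in M2 neurospheres, 781 CPM in M1 neurospheres, 3094 CPM in tdT-positive spheroid cells, 12.6 CPM in tdT-negative spheroid cells and 212 CPM in bowel primary cells. Bowel crest cells that had spent time in mixed spheroids were highest. Stmn2, whose protein destabilises microtubules in growth cones, had 8.28 CPM in adipose neurospheres, 4.20 CPM in adipose primary cells, 23.1 CPM in M2 neurospheres, 74.5 CPM in M1 neurospheres, 8.48 CPM in tdT-positive spheroid cells, 0.232 CPM in tdT-negative spheroid cells and 228 CPM in bowel primary cells. Bowel primary cells were highest, as for the filament genes, and tdT-positive spheroid cells and adipose neurospheres did not differ beyond counting error. Per kilobase of exon, Gap43 and Stmn2 were close in bowel primary cells, at 149 and 110 CPM per kb, and far apart in tdT-positive spheroid cells, at 2179 and 4.09 CPM per kb.

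Shares within families of related genes, which do not depend on library scaling, also set Stmn2 apart from Tubb3 and Gap43. Tubb3 took 12.98% of the reads of 8 beta tubulin genes in adipose neurospheres, 4.07% in adipose primary cells, 16.9% in M2 neurospheres, 14.1% in M1 neurospheres, 27.6% in tdT-positive spheroid cells, 0.305% in tdT-negative spheroid cells and 11.6% in bowel primary cells. In the tdT-negative cells Tubb6, a beta tubulin of many tissues, held 56.3%. Of the reads of 4 stathmin genes, Stmn2 took 3.74% in adipose neurospheres, 2.09% in adipose primary cells, 4.53% in M2 neurospheres, 8.28% in M1 neurospheres, 2.54% in tdT-positive spheroid cells, 0.579% in tdT-negative spheroid cells and 39.6% in bowel primary cells. Stmn1, the stathmin of dividing cells, held between 86.0% and 98.7% in the libraries other than bowel primary cells, where it held 47.9%. Of the reads of Gap43 and its functional relatives Basp1, Marcks and Marcksl1, Gap43 took 23.3% in adipose neurospheres, 3.50% in adipose primary cells, 82.8% in M2 neurospheres, 65.6% in M1 neurospheres, 84.9% in tdT-positive spheroid cells, 6.41% in tdT-negative spheroid cells and 39.8% in bowel primary cells. Gap43 was thus most of this group's reads in every cultured crest library of the bowel.

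**Figure D3:**
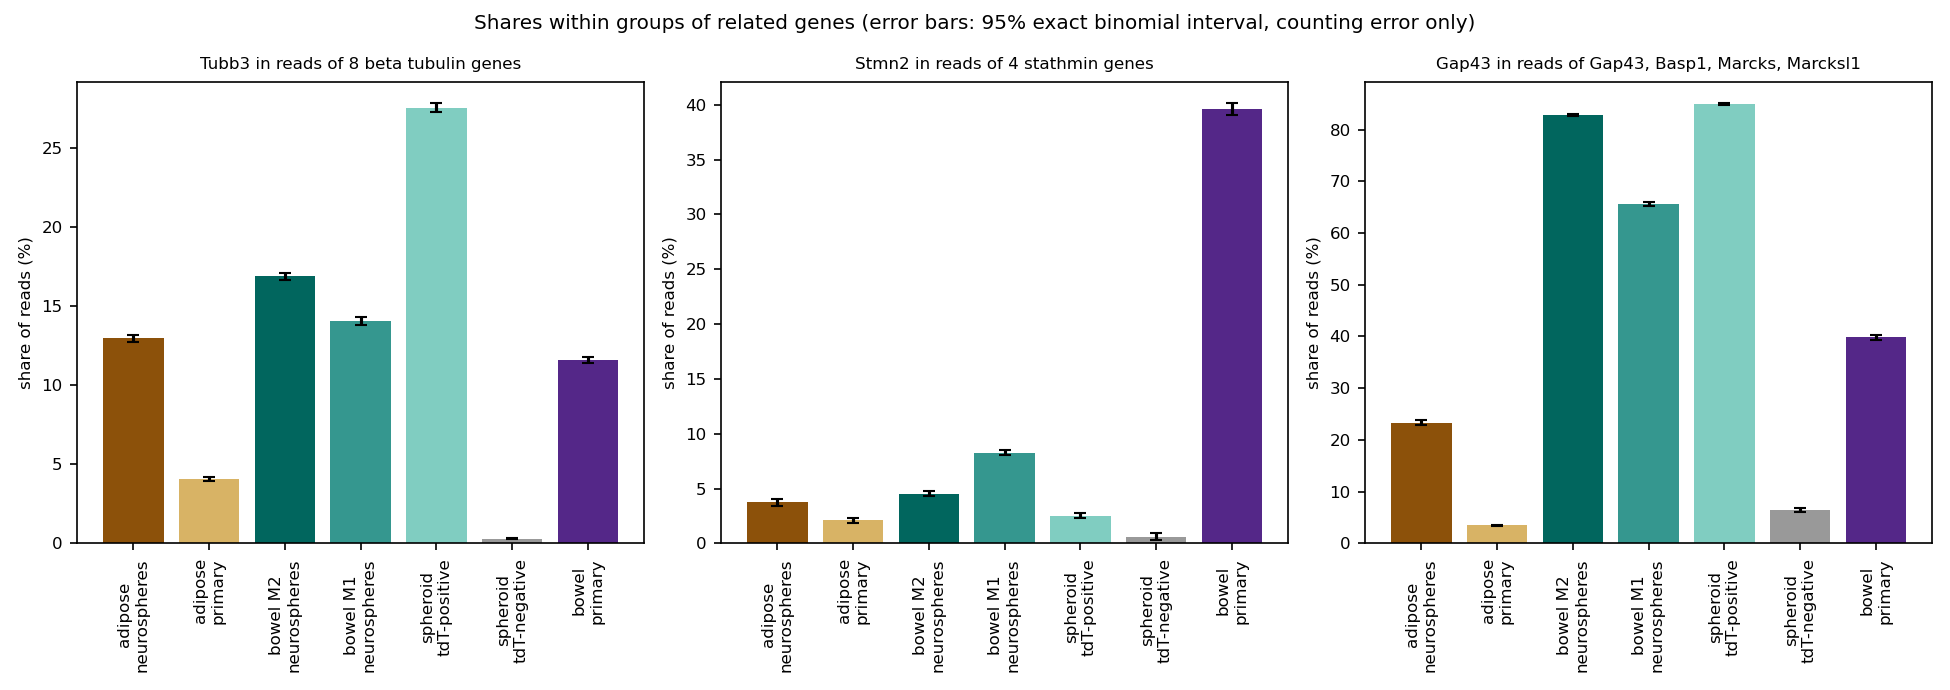
Share of reads (%) that Tubb3, Stmn2 and Gap43 take within groups of related genes in the 7 libraries; error bars are 95% exact binomial intervals for counting error. Stmn2 stands at 39.6% in bowel primary cells and under 10% elsewhere, whereas Tubb3 and Gap43 are highest in tdT-positive spheroid cells, at 27.6% and 84.9%.

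To ask which of these transcripts belong to crest-derived cells within the same culture, tdT-positive spheroid cells were compared with tdT-negative ones. Genes that reached 1 CPM in at least 1 library of a pair were called measured. A gene under 1 CPM in 1 library of a pair was thus measured through the other library and could pass in that direction alone. A gene passed a size rule when its TMM-scaled ratio was 4-fold or more with a 95% exact conditional interval for counting error wholly beyond 2-fold. 6 members were measured and all 6 were higher in tdT-positive cells, where 6.64% of the 13951 measured genes were higher and 12.5% lower (19.1% in either direction). Map2, Mapt, Stmn2 and Prph were under 1 CPM in tdT-negative cells, so they entered through the tdT-positive library alone and could not pass as lower. Gap43 had a log2 ratio of 7.69 (interval 7.59 to 7.79), Tubb3 6.95 (6.75 to 7.17), Map2 5.79 (5.47 to 6.22), Stmn2 4.79 (4.22 to 5.80) and Mapt 4.65 (4.27 to 5.18). Prph had no read in tdT-negative cells and was at least 23.7-fold higher, against a floor of 3 reads in that library. It would not be measured with a minimum of 5 CPM. The other 4, Nefl, Nefm, Nefh and Ina, were under 1 CPM in both fractions. Ina had 4 reads in tdT-positive and 14 reads in tdT-negative cells, Nefm 33 and 3, Nefl 2 and 0, and Nefh 0 and 2. With no filter Nefm would pass as higher in tdT-positive cells (log2 ratio 2.62, interval 1.55 to 5.57). Of 22 other microtubule-associated protein genes measured 3 were higher and none lower, and of 23 other growth cone genes 5 were higher and 5 lower. The microtubule-binding Map6 (log2 ratio 4.93) and Dclk2 (5.45) and the collapsin response mediator Dpysl4 (5.10) were higher in tdT-positive cells, while the growth cone gene Basp1 (-4.20) and the actin regulator Enah (-4.03) were lower. Fibroblast markers, 7 genes, summed to 860.6 CPM in tdT-positive and 24339 CPM in tdT-negative cells, and their part in these values was not tested. Snap25, a synaptic fusion protein, was lower too (-4.78), as was the neuronal surface protein Thy1 (-4.64), so that 5 of 13 measured pan-neuronal markers were higher and 3 lower in tdT-positive cells.

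The 3 cultured crest libraries of the bowel were each compared with bowel primary cells, to set the members in cultured cells beside those in fresh cells. The 3 comparisons share the bowel primary library and are not independent of each other, and smooth muscle and acinar markers were high in that library, as given above. Markers of further cell types moved as well. Macrophage markers, 7 genes, summed to 28.3 CPM in M2 neurospheres, 1356 CPM in M1 neurospheres and 35.1 CPM in tdT-positive spheroid cells, against 3836 CPM in bowel primary cells, with 7, 5 and 7 of them lower. Mesothelial markers, 5 genes, summed to 0.199, 65.03 and 0.758 CPM in the same libraries, against 1319 CPM in bowel primary cells, with 5, 4 and 5 lower. Enteroendocrine markers, 8 genes, summed to 28.9, 54.9 and 16.1 CPM, against 240.3 CPM, and fibroblast markers, 7 genes, to 470.9, 2197 and 860.6 CPM, against 5218 CPM. Among the enteroendocrine genes, Chgb, Pcsk1 and Sct were lower in all 3 libraries and Chga in all but M1 neurospheres. Insm1 was higher in M2 and M1 neurospheres (log2 ratios 4.23 and 3.52), and Cck in tdT-positive spheroid cells (2.72). Of 10 measured glial and Schwann cell markers 4, 2 and 4 were higher, Sox10 and Erbb3 in all 3 libraries. The part of these cells in the members' values was not tested. In M2 neurospheres 2 of 10 members were higher and 7 lower, where 5.89% of 15189 measured genes were higher and 21% lower (26.9% in either direction). In M1 neurospheres 1 was higher and 6 lower, where 6.58% of 15422 genes were higher and 16.3% lower (22.9% in either direction). Scaled by total counts, the split over all genes in M1 neurospheres was 1711 higher and 2116 lower, against 1015 and 2521 here. In tdT-positive spheroid cells 1 was higher and 6 lower, where 6.57% of 15232 genes were higher and 20.4% lower (27% in either direction). Nefl, Nefm, Nefh and Ina were under 1 CPM in M2 neurospheres and tdT-positive spheroid cells, as Nefm and Nefh were in M1 neurospheres. There they were measured through bowel primary cells alone and could only pass as lower. The median log2 ratio of the members was -4.16 in M2 neurospheres, -2.42 in M1 neurospheres and -4.33 in tdT-positive spheroid cells, and that of all measured genes lay between -0.07 and -0.03.

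The filament genes were the lower ones in all 3. Prph had log2 ratios of -7.48 (interval -7.75 to -7.27) in M2 neurospheres, -5.22 (-5.34 to -5.11) in M1 neurospheres and -8.12 (-8.48 to -7.85) in tdT-positive spheroid cells. For Nefl they were -7.23 (-8.08 to -6.77), -5.04 (-5.39 to -4.78) and, from 2 reads, -9.56 (-13.69 to -8.79) in the same order of libraries. Ina was at -6.05, -2.77 and -8.69, and Nefm at -4.73, -4.19 and -3.74. Nefh was at -7.34 in M2 neurospheres (3 reads, interval -10.45 to -6.61) and -4.59 in M1 neurospheres, and it was at least 263-fold lower in tdT-positive spheroid cells, where it had no read. M1 neurospheres thus lay closest to primary cells for 4 of the 5 filament genes, all but Nefm.

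Stmn2 fell with the filaments, with log2 ratios of -3.59 (-3.67 to -3.51) in M2 neurospheres, -2.07 (-2.13 to -2.02) in M1 neurospheres and -4.92 (-5.05 to -4.80) in tdT-positive spheroid cells. The call in M1 neurospheres was lost when libraries were scaled by total counts (-1.61), also without acinar genes (-1.73). Gap43 went the other way, at 3.50 (3.47 to 3.53) in M2 neurospheres and 3.70 (3.67 to 3.72) in tdT-positive spheroid cells, and at 1.42 (1.39 to 1.45) in M1 neurospheres, which did not pass. Map2 was higher in both neurosphere libraries, at 2.64 (2.55 to 2.73) in M2 and 2.64 (2.56 to 2.73) in M1, and at 1.47 in tdT-positive spheroid cells, which did not pass. Mapt passed in M2 neurospheres at -2.76 (-2.89 to -2.65), and its values in M1 neurospheres and tdT-positive spheroid cells were -0.27 and -1.67. The Mapt value in M1 neurospheres changed sign, to 0.19, when scaled by total counts. Tubb3 passed in none of the 3, with values of 0.16, -0.56 and 0.77.

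**Figure D4:**
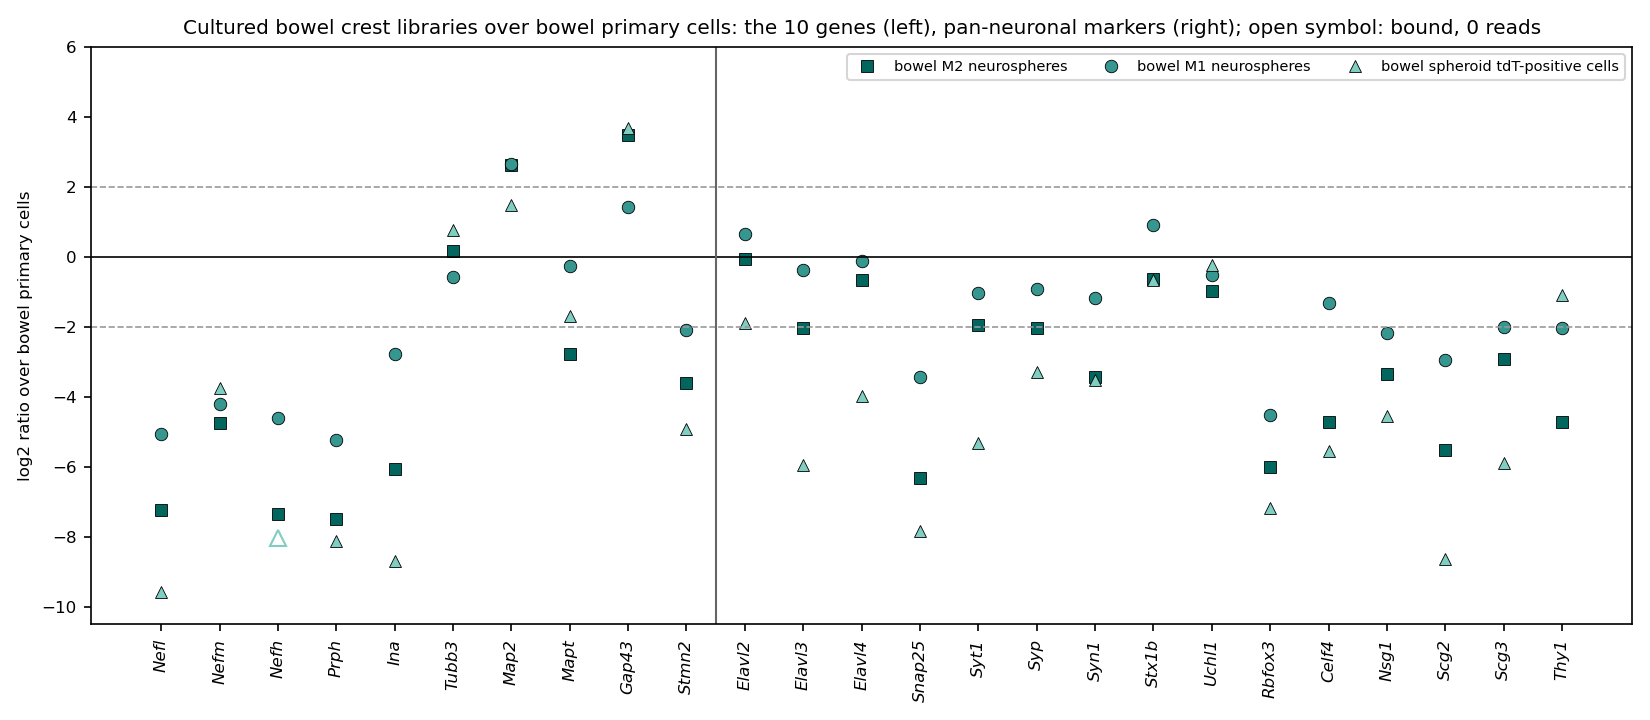
Log2 ratio over bowel primary cells of the 10 genes (left of the line) and of 15 pan-neuronal markers (right) in the 3 cultured crest libraries of the bowel; dashed lines mark 4-fold and the open symbol is a bound for Nefh, which had 0 reads. The 5 filament genes and Stmn2 lie below -2 in all 3 libraries and Gap43 lies above 0 in all 3, while 10 of the 15 markers passed as lower in M2 neurospheres, 5 in M1 neurospheres and 11 in tdT-positive spheroid cells.

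Pan-neuronal markers were lower in the same comparisons, and none of the 15 was higher. In M2 neurospheres 10 were lower (median log2 ratio -2.91), in M1 neurospheres 5 (-1.18) and in tdT-positive spheroid cells 11 (-4.54). Snap25 stood at -6.32, -3.43 and -7.84, and the secretory granule protein gene Scg2 at -5.51, -2.95 and -8.63. Elavl4, an RNA-binding protein of young and mature neurons, passed as lower in tdT-positive spheroid cells, at 11.5 against 162 CPM, and had 125 CPM in M2 and 207 CPM in M1 neurospheres.

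Genes that work with the members passed in both directions. Their counts are to be read against the 26.9%, 22.9% and 27% of all measured genes that passed in M2 neurospheres, M1 neurospheres and tdT-positive spheroid cells. Of 24 other microtubule-associated protein genes, 4 were higher and 3 lower in M2 neurospheres, 2 higher and none lower in M1 neurospheres, and 4 higher and 4 lower in tdT-positive spheroid cells. The linker protein gene Clip2 passed as higher in all 3, with log2 ratios of 3.005, 2.85 and 3.20. Of the other growth cone genes, 25 listed, 2 were higher and 5 lower of 24 measured in M2 neurospheres, 3 and 3 of 25 in M1 neurospheres, and 2 and 9 of 24 in tdT-positive spheroid cells. Fscn1, the actin-bundling protein fascin, was among the higher genes, with log2 ratios of 4.36, 3.52 and 4.45, and Rtn1, a reticulon of neurons, among the lower ones, with -6.94, -3.02 and -9.63. Of 13 other intermediate filament genes, 12 were measured, with 3 higher and 4 lower in M2 neurospheres, 2 and 4 in M1 neurospheres, and 4 and 4 in tdT-positive spheroid cells. Desmin (Des), the filament of muscle, was the lowest, at -10.65, -9.55 and -9.08. Of the 13 other tubulin genes measured, Tubb2b was higher in M2 neurospheres, with a log2 ratio of 2.35, and 3 were lower there, 2 were lower in M1 neurospheres and 1, Tuba4a, in tdT-positive spheroid cells. Of 19 axonal transport motor genes, 2 were higher and 2 lower in M2 neurospheres, 1 and 1 in M1 neurospheres, and 2 and 4 in tdT-positive spheroid cells, with the dynein intermediate chain Dync1i1 lower in all 3 (-6.25, -3.61 and -6.89).

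The counts of the remaining lists are to be read against the same shares. Of the spectrin and ankyrin scaffold genes, 12 listed, 0 were higher and 3 lower of 11 measured in M2 neurospheres, 0 and 1 of 12 in M1 neurospheres, and 1 and 2 of 11 in tdT-positive spheroid cells. Ank3, the ankyrin of the axon initial segment, was the higher gene in tdT-positive spheroid cells (log2 ratio 3.63). Of 19 tubulin modification and severing genes, 2 were higher and 3 lower in M2 neurospheres, 1 and 3 in M1 neurospheres, and 2 and 3 in tdT-positive spheroid cells, with the tubulin carboxypeptidase gene Vash2 higher in all 3 (3.36, 3.85 and 3.44). Of the tau and neurofilament kinase genes, 15 measured, 1 was higher and 1 lower in M2 neurospheres, 1 and 0 in M1 neurospheres, and 0 and 1 in tdT-positive spheroid cells. The stress kinase gene Mapk10 was the lower kinase, at -2.72 in M2 neurospheres and -3.80 in tdT-positive spheroid cells. Of the 3 other stathmin genes, Stmn3 was lower in M2 neurospheres (-3.05) and, together with Stmn4, in tdT-positive spheroid cells (-8.70 and -3.13), and none passed in M1 neurospheres.

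Both ways of growing bowel neurospheres were then compared directly, M2 over M1. M2 neurospheres also had 10 more days of culture, so the way of growing and the time in culture cannot be told apart. Of 8 measured members 1 was higher and 4 lower in M2 neurospheres, where 1.2% of 14141 measured genes were higher and 7.37% lower (8.57% in either direction). Nefl and Ina were under 1 CPM in M2 neurospheres and were measured through M1 neurospheres alone. Ina had a log2 ratio of -3.29 (interval -3.87 to -2.88), Mapt -2.50 (-2.62 to -2.38), Prph -2.26 (-2.55 to -2.01) and Nefl -2.20 (-3.06 to -1.61). Gap43 was the higher gene at 2.07 (2.06 to 2.09), a call that was lost when scaled by total counts (1.90). Tubb3 (0.72) and Stmn2 (-1.52) passed in neither direction, and Map2 stood at 0.00 (-0.04 to 0.04). Macrophage markers, 7 genes, summed to 28.3 CPM in M2 and 1356 CPM in M1 neurospheres. The sums of fibroblast, mesothelial and enteroendocrine markers, given above, were also lower in M2 neurospheres. The part of all these cells in the members' values was not tested. Celf4, an RNA-binding protein of neurons, led the 4 of 13 pan-neuronal markers that were lower in M2 neurospheres, at 5.93 against 70.9 CPM.

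M2 neurospheres, which had a further 10 days of culture after the sort, were also compared with tdT-positive spheroid cells. In those days they grew without tdT-negative cells, so added time and the removal of these cells cannot be told apart. None of 6 measured members passed, where 3.07% of 13432 genes were higher and 3.86% lower (6.94% in either direction). Their log2 ratios ran from -1.09 for Mapt to 1.33 for Stmn2, with Map2 at 1.17, Prph at 0.64, Gap43 at -0.20 and Tubb3 at -0.61. Under a 2-fold rule 3 would pass, Map2 and Stmn2 as higher and Mapt as lower. More of all genes pass a 2-fold rule too, and the shares given above belong to the 4-fold rule. Nefl, with 21 against 2 reads, and Ina, with 40 against 4 reads, were under 1 CPM in both libraries and would pass as higher with no filter. Of 14 measured pan-neuronal markers 5 were higher and 1 lower in M2 neurospheres, Elavl4 among the higher ones (log2 ratio 3.32). Of the other stathmins, Stmn3 had 9.43 against 0.139 CPM and Stmn4 7.90 against 0.944 CPM.

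**Figure D5:**
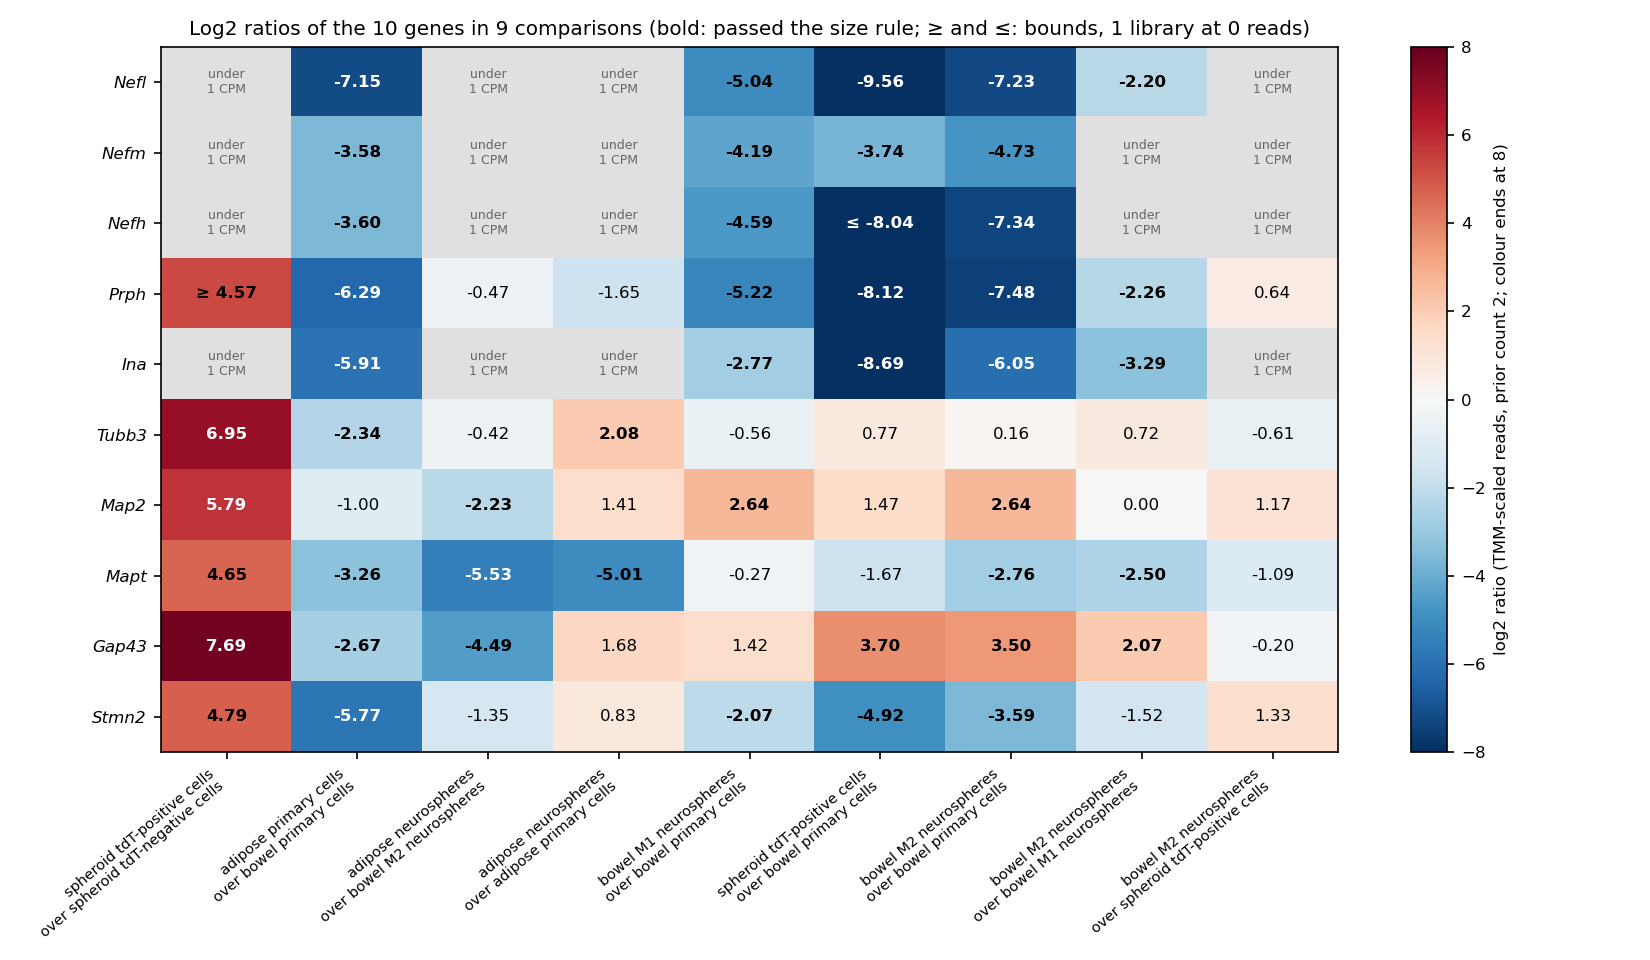
Log2 ratio of each of the 10 genes in the 9 comparisons, with the library named first over the one named after "over"; bold values passed the size rule, ≥ and ≤ mark bounds where 1 library had 0 reads, and grey cells are under 1 CPM in both libraries. The 6 measured genes have positive values in the spheroid sort comparison at the left, from a bound of 4.57 for Prph to 7.69 for Gap43, and all are negative for adipose primary over bowel primary cells.

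The tissue of origin was compared in fresh cells, adipose primary over bowel primary. All 10 members were measured and 9 were lower in adipose cells, where 11.4% of 15585 genes were lower and 7.09% higher (18.5% in either direction). Nefl, Nefm, Nefh and Ina were under 1 CPM in adipose cells, so they were measured through bowel cells alone and could only pass as lower. The largest differences were those of Nefl, with a log2 ratio of -7.15 (interval -8.07 to -6.65), Prph with -6.29 (-6.48 to -6.13), Ina with -5.91 (-6.51 to -5.52) and Stmn2 with -5.77 (-5.96 to -5.61). Nefh (-3.60), Nefm (-3.58), Mapt (-3.26), Gap43 (-2.67) and Tubb3 (-2.34) were lower by less. Map2 had a log2 ratio of -0.997 (-1.14 to -0.86) and did not pass. The median of the 10 was -3.59, that of all measured genes 0.09 and that of 15 pan-neuronal markers -4.24, with 13 of these lower. Snap25 had 0.0312 against 417 CPM. All 11 enteric neuron markers were lower too. Sensory and sympathetic neuron markers, 12 genes, summed to 15.9 CPM in adipose and 517.8 CPM in bowel primary cells, with Isl1 and Prdm12 at 0 reads in adipose cells and Pou4f1 and Prdm12 at 0 reads in bowel cells. Glial and Schwann cell markers summed to 6918 against 1691 CPM, with 5 of 11 higher in adipose cells and none lower. Of 25 other growth cone genes 3 were higher, led by Fscn1 (log2 ratio 5.12), and 9 lower, led by Tagln3 (-7.72), and of 24 other microtubule-associated protein genes 0 were higher and 4 lower. Stmn3 (-9.004) and Stmn4 (-5.34) fell with Stmn2, and Dcx, the doublecortin gene of migrating neurons, had no read in adipose cells against 4.13 CPM in bowel cells.

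Between neurospheres of both tissues, adipose over bowel M2, the gap in Tubb3 was small. The comparison counted 3 of 6 measured members as lower and 0 as higher in adipose neurospheres, where 8.71% of 13440 genes were lower and 5.33% higher (14% in either direction). Mapt had a log2 ratio of -5.53 (interval -6.76 to -4.90), Gap43 -4.49 (-4.52 to -4.45) and Map2 -2.23 (-2.30 to -2.16). Tubb3 stood at -0.42 (-0.45 to -0.39), Prph at -0.47 and Stmn2 at -1.35, none of which passed. With M1 neurospheres as the bowel library, Nefl (-3.21), Prph (-2.73), Ina (-4.58) and Stmn2 (-2.87) were lower as well. The shares of all genes given above belong to the M2 pair and not to this one. Adipose neurospheres held Mapt, Nefl and Ina under 1 CPM, so where measured these could only pass as lower. With tdT-positive spheroid cells in that place the Map2 value was -1.06 and did not pass. Of 14 measured pan-neuronal markers 10 were lower and 2 higher in adipose neurospheres. The higher ones were Uchl1, a ubiquitin hydrolase abundant in neurons, with 502 against 105 CPM, and Thy1. Elavl4 had 0.195 against 125 CPM, and Snap25 had no read against 6.34 CPM. The 7 measured enteric neuron markers were all lower in adipose neurospheres. Of 23 other growth cone genes measured 0 were higher and 7 lower, led by the collapsin response mediator Dpysl5 at 1.06 against 96.3 CPM, and of 22 other microtubule-associated protein genes 1, the doublecortin-like kinase Dclk1, was higher (2.05) and 2 were lower. Tubb3 was thus within 2-fold of its level in M2 neurospheres. So was Prph, but it was low in both, with 90 reads (1.46 CPM) in adipose and 144 reads (2.21 CPM) in M2 neurospheres. Mapt, Gap43 and Map2, like 10 of 14 pan-neuronal markers, were at least 4-fold below their levels in M2 neurospheres.

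In adipose neurospheres over adipose primary cells, few members passed the 4-fold size rule. Of 6 measured, 1 was higher and 1 lower, where 5.71% of 14773 genes were higher and 20.8% lower (26.5% in either direction), so the share of members called was near the background. Tubb3 was higher with a log2 ratio of 2.08 (interval 2.03 to 2.14) and Mapt lower with -5.01 (-6.27 to -4.40). Gap43 (1.68), Map2 (1.41), Stmn2 (0.83) and Prph (-1.65) did not pass. Under a 2-fold rule 5 would pass, and under an 8-fold rule 1. The shares of all genes given above belong to the 4-fold rule and not to these, and more of all genes pass a 2-fold rule too. Nefh, under 1 CPM in both, had no read in neurospheres against 56 reads in primary cells, which made it at least 19.9-fold lower. Lymphocyte markers, 8 genes, summed to 0.454 CPM in neurospheres and 1789 CPM in primary cells, where Ccr7 alone had 1473 CPM. The part of such cells in these values was not tested. Uchl1 rose with Tubb3, at 502 against 8.97 CPM, and Nes at a log2 ratio of 5.68, whereas the synaptic vesicle protein gene Syp fell, at 1.01 against 30.0 CPM. Of 23 other growth cone genes measured 3 were higher, led by Crmp1 (3.78), and 5 lower, and of 23 other microtubule-associated protein genes 3 were higher, led by Dclk1 (3.65), and 1 lower. The adducin gene Add2, whose protein belongs to the spectrin-actin skeleton under the membrane, had 82.7 CPM against no read.

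Across the 7 libraries the members fell into patterns that were compared by the root mean square difference of their centred log2 levels (TMM-scaled CPM plus 1). Of the 45 pairs, Nefm and Nefh were most alike (0.49), then Nefl and Ina (0.51), and Prph and Gap43 were farthest apart (3.58). Likeness between low genes is small in size because their levels vary little on this scale. The search for genes of like pattern covered 12187 other named genes whose highest level was at least 10 CPM. The pattern of Nefl was closest to that of Cbln2 (0.15), that of Prph to Krt7 (0.65), that of Ina to Cplx1 (0.27), and that of Nefh to Hepacam2 (0.15). Cbln2, Krt7, Cplx1 and Hepacam2 were likewise highest in bowel primary cells, so these matches rest largely on that library. Markers of several cell types were high there, and a match does not place genes in the same cells. Nefm, under 10 CPM in every library, was closest to Nipal3 (0.24). Tubb3 was closest to Dtna (0.56), Map2 to Mest (0.43), Mapt to Astn1 (0.65), Stmn2 to Syngr3 (0.48) and Gap43 to Shc4 (0.99), the most distant of these nearest genes. Dtna had 328 CPM in adipose neurospheres, 22.4 CPM in adipose primary cells, 489 CPM in M2 neurospheres, 272 CPM in M1 neurospheres, 390.5 CPM in tdT-positive spheroid cells, 3.22 CPM in tdT-negative spheroid cells and 159.8 CPM in bowel primary cells. It thus shared with Tubb3 the high level in adipose neurospheres and the low one in tdT-negative cells. Syngr3, a synaptic vesicle gene, had 181 CPM in bowel primary cells and 52.4 CPM in M1 neurospheres, and stayed under 10 CPM in the 5 other libraries, as Stmn2 did in all of these but M2 neurospheres.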

How the data were processed

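Deposited values are CPM per Entrez gene, which the authors scaled to the assigned reads of a library. The submitters' processing notes name mm10 and the tools bcl2fastq 2.17, HISAT and featureCounts; no settings, annotation or use of strand were given in the sources used here. Per the labels' protocols, RNA of pooled cells was amplified as full-length cDNA with SMART-Seq v4 and made into Nextera XT libraries, so reads are not independent molecules. All CPM were whole multiples of the value of 1 read: 100% came out whole within 0.05 read, and ratios were computed from these recovered reads. No count test could be run on them, since 1 library per group leaves no residual degrees of freedom.

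Of the identifiers, 25275 matched a RefSeq table of GRCm38.p6, which also gave positions, and 1904 did not; promoter windows came from a separate RefSeq table of that build. Exon lengths are unions of GENCODE M21 basic exons on GRCm38, which may not be the annotation the authors counted on. Ratios were scaled with TMM factors from the 16461 genes at 1 CPM or more in a library (edgeR 4.0.16, R 4.3.3). They carry a prior count of 2, so ratios of genes with few reads are understated. CPM printed beside genes are not rescaled. Genes with 0 reads were bounded with a floor of 3 reads per library, and those with 1 to 3 reads carry their interval. Alternatives were scaling by total counts, with and without acinar genes; size factors from DESeq2 1.42.0; no filter or a minimum of 5 CPM; a prior count of 0.5; 2-fold and 8-fold rules; and another bowel library beside adipose neurospheres. The steps were tested on simulated reads. Other software was Python 3.11.15 with scipy 1.17.1, pandas 2.3.3, matplotlib 3.10.9 and numpy 2.4.6.

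The members, the related lists and the marker lists were chosen with earlier results of these data known. Named genes are the members, up to 3 genes at each end of a list that passed the size rule, the related genes used for shares, the genes of most alike pattern, and marker genes whose value stands beside a result.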

Additional observations from a re-analysis of the deposited data

Results flagged for a closer look

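Stmn2 moved in opposite directions with culture in the 2 tissues. Its log2 ratio was 0.83 (95% counting interval 0.62 to 1.05) in adipose neurospheres over adipose primary cells and -3.59 (-3.67 to -3.51) in bowel M2 neurospheres over bowel primary cells. The value in fat did not pass the size rule. The levels behind it were 8.28 against 4.20 CPM in fat and 23.1 against 228 CPM in bowel. The difference between the tissues was not tested, since each group had 1 library.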

How the results depend on the processing

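With 1 library per group, leaving out a replicate was not possible. No paired analysis was possible because each group had 1 library, which leaves no replication of any pair. Of the recomputed member ratios, 700 kept their direction and their side of the size rule, 20 came to pass and 20 no longer passed, and no ratio that had passed changed sign. Counts of members that moved by over 1.5 times were those for M2 neurospheres over tdT-positive spheroid cells (2 with no filter and 3 under a 2-fold rule, against 0), adipose over M2 neurospheres (7 with M1 neurospheres as the bowel library, against 3), adipose neurospheres over primary cells (5 under a 2-fold and 1 under an 8-fold rule, against 2), M1 neurospheres over bowel primary cells (4 under an 8-fold rule, against 7) and M2 over M1 neurospheres (1 under an 8-fold rule, against 5). Counts over all genes moved too, and the 2-fold rule passed between 2651 and 7426 genes, against 932 to 4106. With no filter and with 5 CPM, 4354 and 1909 genes passed for adipose over bowel primary cells (against 2879), 1929 and 617 for M2 over M1 neurospheres (1212) and 1632 and 514 for M2 neurospheres over tdT-positive spheroid cells (932), and with 5 CPM 1217 for adipose over M2 neurospheres (1887). The 8-fold rule passed 1835, 594, 378 and 1092 genes in these 4 comparisons and 2062 for M1 neurospheres over bowel primary cells (3536). Scaling by total counts moved the median of all genes to 0.38 in M1 neurospheres over bowel primary cells, to 0.25 in the spheroid sort and to -0.25 in M2 over M1 neurospheres, so ratios under that scaling are to be read relative to these shifts. The cause of each change was not tested beyond what the setting itself does. Members under 1 CPM in both libraries of a pair rest on at most 56 reads in a library and were given no call.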
